A study of Mus musculus with 374 samples.

Results

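Pre-mRNA splicing depends on proteins that are grouped here into 4 gene families, and the families were described across 5 sorted mouse blood cell populations. The members were the rows of the deposited count table whose gene symbol starts with Snrp, Srsf, Hnrnp or Sf3, with pseudogenes left out. This gave 49 of 19829 mouse genes, of which 11 were Snrp, 10 Srsf, 19 Hnrnp and 9 Sf3 genes. A further 3 pseudogenes with the same prefixes were set aside, and Snrpn, Srsf12 and Hnrnpk were not analysed here.

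The Snrp genes encode proteins of the small nuclear ribonucleoproteins, including the Sm proteins that form a ring on the U1, U2, U4 and U5 small nuclear RNAs, and the proteins particular to the U1 and U2 particles. Sf3 genes encode the SF3a and SF3b subunits of the U2 particle, which recognise the branch point of the intron. Srsf genes encode SR proteins, RNA-binding factors with an arginine-serine rich domain that mostly promote the use of exons, and Hnrnp genes encode the heterogeneous nuclear ribonucleoproteins, which package nascent RNA and often oppose SR proteins at regulated exons.

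Single cells of 1 female C57BL/6 mouse, 10-13 weeks old, were index sorted into 1 plate and profiled with an adapted CEL-seq2 protocol, which counts unique molecular identifiers (UMIs) at the 3′ ends of polyadenylated RNA. From the bone marrow came 95 wells of progenitor/stem cells gated as Lin- Kit+ Sca1+ (LSK), 96 of erythroblasts gated as Ter119+ CD44+ with mid to high forward scatter, 96 of granulocytes gated as Mac1+ Gr1+ and 44 of B lymphocytes gated as B220+ with low forward scatter. The thymus of the same animal gave 43 wells of T lymphocytes gated as CD3+ with low forward scatter. With 1 animal each population is 1 sample, so no test between populations was possible, and every interval below is a 95% exact interval that covers counting error only.

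Mouse genes received 834812 UMIs in LSK cells, 666728 in erythroblasts, 403506 in granulocytes, 135808 in B and 200396 in T lymphocytes. Each lineage's marker list was highest in the population of that name, with B lymphocyte markers at 9558 UMIs per 1000000 mouse UMIs (CPM) in B cells against 121 to 309 elsewhere, and T lymphocyte markers at 3957 CPM in T cells against 39.0 to 73.6 elsewhere. Granulocyte markers summed to 151626 CPM in granulocytes and 1720 to 6693 elsewhere, and progenitor markers to 3527 CPM in LSK cells and 135 to 230 elsewhere. Erythroblast markers, mostly haemoglobin, took 246693 CPM in erythroblasts but also 29188 CPM in B cells, where 9 of the 44 wells held over 5% haemoglobin UMIs, and 13280 to 18399 CPM in the other 3 populations. Pax5 was at 0 outside the B cells, and Cd3g was at 0 in LSK cells, granulocytes and B cells.

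The 49 genes together held 20604 of 2241250 UMIs, and their CPM was highest in LSK cells and lowest in granulocytes. It was 11288 CPM in LSK cells (11061 to 11518), 8582 in erythroblasts (8361 to 8808), 5177 in granulocytes (4957 to 5404), 10044 in B cells (9518 to 10591) and 10010 in T cells (9577 to 10458). The B and T levels differed by less than their counting error. Plate rows, the only technical division that the labels show, ranged from 10457 to 12287 CPM in the 4 LSK rows, 7776 to 9135 in the 4 erythroblast rows and 4054 to 5841 in the 4 granulocyte rows, so the granulocyte rows lay under every row of the other populations. Each population filled its own plate rows. Here and below, rows show the spread within a population and cannot separate population from plate position. In UMIs rather than shares, an average well held 99.2 member UMIs for LSK cells, 59.6 for erythroblasts, 21.8 for granulocytes, 31.0 for B and 46.7 for T cells.

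**Figure D1:**
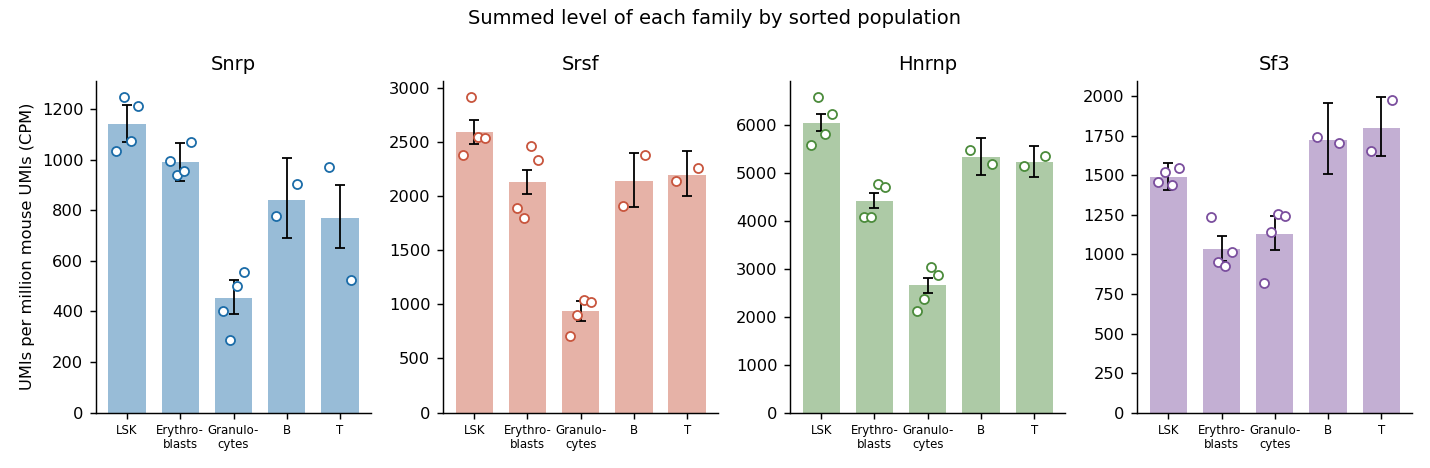
Summed level of each family in CPM (y axis, from 0) in the 5 populations (x axis), with bars for all wells of a population, 95% exact Poisson intervals as lines and open circles for plate rows. Snrp, Srsf and Hnrnp were lowest in CPM in granulocytes, while Sf3 ran from 1036 CPM in erythroblasts and 1133 in granulocytes to 1801 in T lymphocytes. The order of erythroblasts and LSK cells turned round in every family with scran or TMM scaling.

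The 4 families did not keep the same proportions. Hnrnp genes took 51.3 to 53.7% of the member UMIs in every population. Sf3 genes took 13.2% in LSK cells (12.5 to 13.9), 12.1% in erythroblasts (11.2 to 12.9), 21.9% in granulocytes (20.1 to 23.7), 17.2% in B cells (15.2 to 19.3) and 18.0% in T cells (16.3 to 19.7). A total applied to a whole population cannot change such shares, but scran size factors, which weight each well, can. The granulocyte plate rows, from 20.2 to 24.3%, lay above all 4 LSK rows, from 12.4 to 14.0%, and all 4 erythroblast rows, from 10.1 to 15.1%. Srsf genes made up 24.8% in erythroblasts, 23.0% in LSK cells, 21.9% in T, 21.3% in B and 18.0% in granulocytes. Snrp genes were at 11.5% in erythroblasts and 10.1% in LSK cells, and at 8.76% in granulocytes, 8.36% in B and 7.68% in T cells, where the intervals of the last 3 overlapped and the 2 T plate rows were at 5.20 and 9.79%.

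**Figure D2:**
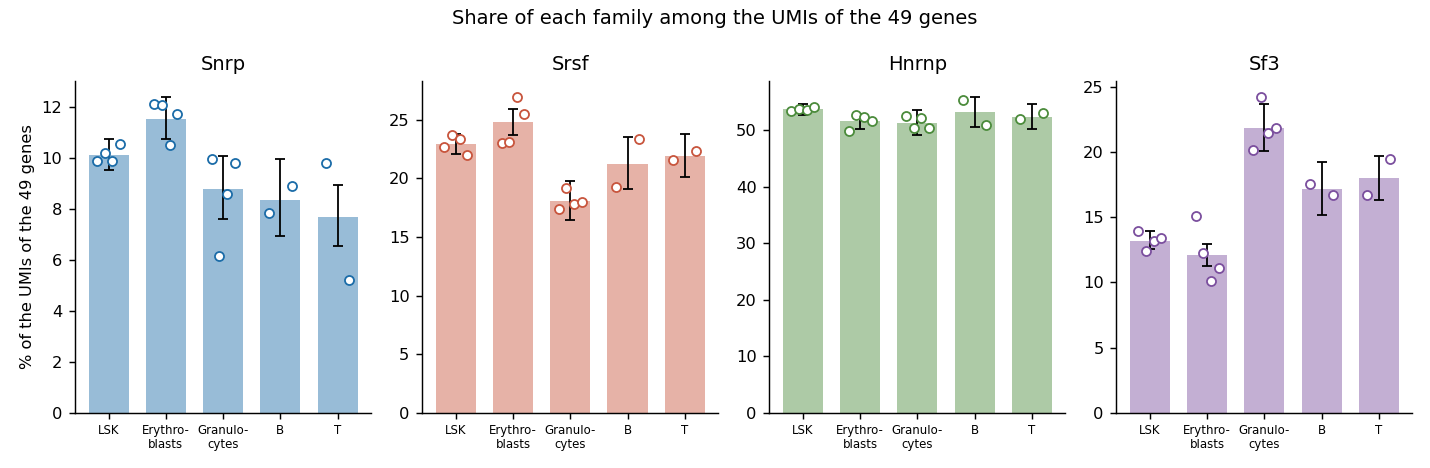
Percentage of the UMIs of the 49 genes that fell on each family (y axis, from 0) in the 5 populations, with bars for all wells, 95% exact binomial intervals as lines and open circles for plate rows. The Hnrnp bars stand between 51.3 and 53.7%, whereas the Sf3 bar rises from 13.2% in LSK cells to 21.9% in granulocytes.

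To describe these genes outside the count table, their promoters were read from RefSeq (mouse build GRCm38.p6, 250 bases before to 50 after the start), where 43 of the 49 members matched. The letters CCGGAA, the core recognised by ETS factors, stood on either strand in 23 of the 43 (53.5%), against 15.2% of 27025 promoters of all genes and 32.6% of the 4468 promoters of genes with at least 50 UMIs here. By family these were 5 of 9 Snrp, 6 of 10 Srsf, 6 of 17 Hnrnp and 6 of 7 Sf3 promoters. The GC box letters GGGCGG were in 31 of 43 (72.1%), against 35.9% of all promoters and 67.3% of those of detected genes, and the TATA box letters TATAAA in 6 (14.0%), against 14.2 and 6.83%. For CCAAT the shares were 46.5, 37.9 and 39.7%, for the E-box CACGTG they were 11.6, 7.24 and 11.2%, and for GCGCA they were 65.1, 30.5 and 54.2%. For the members the listed start nearest to the annotated gene start was used. That start lay furthest away for Hnrnpl (2349 bases), Snrpc (1937), Hnrnpm (1402) and Snrpa1 (1333). For the comparison sets, which also include members, the first start listed for each gene was used. Both strands were read for each motif, and none of these motifs contains another, though their ends can overlap. The member of each family with the most UMIs among those whose last 200 bases before the start hold CCGGAA on either strand is shown, 5′ to 3′ on the strand of the gene, with those letters in capitals. The position is chr1:133610281-133610480 (minus strand) for Snrpe, chr11:116853095-116853294 (minus) for Srsf2, chr6:51469895-51470094 (minus) for Hnrnpa2b1 and chr19:5295456-5295655 (minus) for Sf3b2.
Snrpe: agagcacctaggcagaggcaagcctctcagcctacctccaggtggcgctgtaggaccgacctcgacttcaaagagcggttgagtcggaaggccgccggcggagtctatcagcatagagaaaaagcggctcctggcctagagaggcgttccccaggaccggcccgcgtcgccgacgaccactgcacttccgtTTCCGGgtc
Srsf2: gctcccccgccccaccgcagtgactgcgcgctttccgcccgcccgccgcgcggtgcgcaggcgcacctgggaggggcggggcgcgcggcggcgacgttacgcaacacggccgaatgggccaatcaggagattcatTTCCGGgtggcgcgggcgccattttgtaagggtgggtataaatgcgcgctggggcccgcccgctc
Hnrnpa2b1: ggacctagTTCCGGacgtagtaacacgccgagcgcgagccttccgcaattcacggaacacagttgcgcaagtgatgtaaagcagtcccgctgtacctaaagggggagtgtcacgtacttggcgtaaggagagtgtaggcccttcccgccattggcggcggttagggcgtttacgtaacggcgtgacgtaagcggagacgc
Sf3b2: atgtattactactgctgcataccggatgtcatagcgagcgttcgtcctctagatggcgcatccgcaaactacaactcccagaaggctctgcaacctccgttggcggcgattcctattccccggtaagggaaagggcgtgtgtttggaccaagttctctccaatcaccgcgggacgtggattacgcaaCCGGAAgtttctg
The letters began 9 bases before the start in Snrpe, 13 in Sf3b2, 65 in Srsf2 and 192 in Hnrnpa2b1. A match is a description of the letters and not a bound site.

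Between populations, a ratio of CPM was taken for genes with at least 50 UMIs in the pair together, and a gene past 2-fold was counted. Over LSK cells, 9 of 44 members (20.5%) were lower by 2-fold or more in erythroblasts, against 40.9% of all 4792 genes tested, and 0 were higher, against 14.8%. In granulocytes 23 of 40 members (57.5%) were lower, against 42.7% of 4440 genes, and 0 were higher, against 13.7%. B cells had 2 of 39 members lower, against 27.9% of 3793 genes, and 0 higher, against 6.56%. Once wells with over 5% haemoglobin outside the erythroblasts were left out, 4 members were lower. The share of all genes in that setting is not reported here, so this change cannot be read as particular to the members. T cells had 5 of 40 lower, against 17.8% of 4060 genes, and 0 higher, against 8.35%. For T over B cells 1 of 23 was lower, against 9.34% of 1103 genes, and 0 were higher, against 18.2%. Members and all genes were not matched for depth in these shares, and genes near 50 UMIs have a larger counting error.

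Totals differed in make-up, so the median gene was not at 0. Its log2 ratio over LSK cells was -0.73 in erythroblasts, -0.76 in granulocytes, -0.44 in B and -0.22 in T cells, and 0.29 for T over B. With scran size factors these medians moved to 0.23, 0.05, -0.14, -0.07 and 0.14, and with TMM on the summed counts to 0.13, 0.01, -0.33, -0.20 and 0.21. Relative to the median gene the members' median stood 0.45 higher in erythroblasts, 0.49 lower in granulocytes, 0.19 higher in B cells, 0.09 lower in T cells and 0.31 lower for T over B. A scaling that multiplies all genes of a population alike cannot move these offsets, but plate rows and the depth of the genes could. The erythroblast offset ran from 0.21 to 0.48 with single plate rows left out, the lowest without LSK row K, and was 0.008 among the 25 members with at least 200 UMIs, set against genes of that depth. The granulocyte offset ran from -0.63 without LSK row K to -0.31 without granulocyte row G, and was also -0.31 at 200 UMIs. The T cell offset had no stable sign, at 0.10 without T row O, 0.006 without LSK row L, 0.072 with scran size factors, 0.043 as a mean over wells and 0.13 at 200 UMIs. For T over B it came to -0.029 without T row O.

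**Figure D3:**
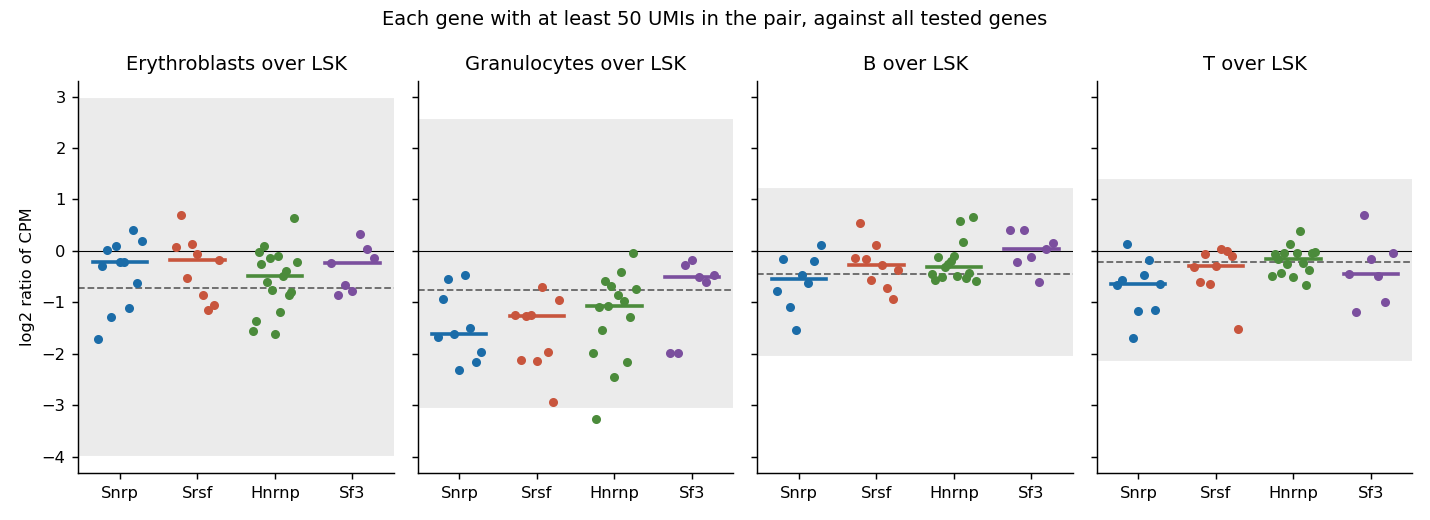
Log2 ratio of CPM over LSK cells (y axis) of each gene with at least 50 UMIs in the pair, as 1 dot, by family (x axis) for erythroblasts, granulocytes, B and T lymphocytes. Thick lines are family medians, the dashed line is the median of all tested genes and the grey band runs from their 5th to their 95th percentile. In granulocytes the Sf3 median, -0.51, lies above the dashed line at -0.76 and the other 3 family medians lie under it, while the sign of the Sf3 value turned round with scran or TMM scaling.

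In granulocytes Sf3 stood apart from the other 3 families. Summed over each family the log2 ratio to LSK cells was -1.47 for Srsf (-1.63 to -1.31), -1.33 for Snrp (-1.57 to -1.10) and -1.19 for Hnrnp (-1.29 to -1.09), and these 3 stayed negative under every scaling tried. Sf3 was at -0.40 (-0.56 to -0.24), which turned to 0.56 with scran size factors and 0.37 with TMM. Without Sf3b1 the other 8 Sf3 genes gave -0.53 (-0.76 to -0.30), from 745 CPM in LSK cells and 515 in granulocytes. A large part of both sums was Sf3b2, at 291 to 405 CPM in the LSK rows and 213 to 378 in the granulocyte rows. A sum without both genes was not made. Within the family the SF3a genes, picked out after their values were seen, were lower than the SF3b genes. Sf3a1 was at 88.6 CPM in LSK cells and 22.3 in granulocytes (-1.99, interval -3.18 to -0.99) and Sf3a3 at 68.3 and 17.3 CPM (-1.98, interval -3.35 to -0.84), on 9 and 7 granulocyte UMIs, whereas the 5 SF3b genes tested lay between -0.60 and -0.17. Cytosolic ribosomal protein genes were at -1.93 (-1.97 to -1.90) and translation factors at -1.47 (-1.54 to -1.39) in the same comparison.

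Hnrnpa1, a shuttling splicing repressor, was at 120 CPM in LSK cells, 46.5 in erythroblasts, 12.4 in granulocytes, 81.0 in B and 115 in T cells. Its granulocyte value rested on 5 UMIs, and the log2 ratio to LSK cells was -3.27 (-4.93 to -2.00). Srsf7, an SR protein that also takes part in mRNA export, was at 322, 156, 42.1, 169 and 299 CPM in the same order. It was lowest in granulocytes, at -2.94 (-3.74 to -2.23), and the 4 granulocyte rows, from 12.5 to 68.7 CPM, lay under all rows of the other populations.

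Hnrnph1, which binds G-rich RNA, stood at 680 CPM in LSK cells, 633 in B and 479 in T cells but at 223 in erythroblasts and 124 in granulocytes. It therefore separated the lymphoid and progenitor populations from the erythroid and myeloid ones. The log2 ratios over LSK cells were -1.61 (-1.88 to -1.34) in erythroblasts and -2.46 (-2.90 to -2.04) in granulocytes, and both stayed negative under every scaling tried. Within its family it took 11.2% of the Hnrnp UMIs in LSK cells, 11.8% in B and 9.13% in T cells, against 5.05% in erythroblasts (4.29 to 5.90) and 4.66% in granulocytes (3.48 to 6.10). Part of its transcript end matched an annotated transcript of Setd1b, and the part of this match in the counts was not tested.

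Snrpd2 and Snrpf, both proteins of the Sm ring, were the other members with the lowest granulocyte ratios. Snrpd2 was at 111 CPM in LSK cells, 96.0 in erythroblasts, 22.3 in granulocytes, 81.0 in B and 49.9 in T cells, and its granulocyte log2 ratio was -2.32 (-3.49 to -1.33). For Snrpf the levels were 144, 93.0, 32.2, 125 and 64.9 CPM, and the ratio was -2.16 (-3.11 to -1.33). The end of Snrpf overlaps Ccdc38 on the other strand, and whether the counting used strand is nowhere stated.

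At the other end of the granulocyte ratios stood Hnrnpul1, a relative of the scaffold protein Hnrnpu, with 3 SF3b subunits and Hnrnpl, which binds CA-rich RNA. Hnrnpul1 was at 195 CPM in LSK cells and 191 in granulocytes, a log2 ratio of -0.03 (-0.44 to 0.37). Sf3b2 was at 338 and 300 CPM (-0.17, interval -0.49 to 0.14) and Sf3b1 at 747 and 617 CPM (-0.28, interval -0.49 to -0.06). Hnrnpl gave -0.40 (-0.84 to 0.02) and Sf3b6, the subunit that touches the branch point adenosine, -0.46 (-1.08 to 0.12). All 5 ratios changed sign with scran size factors and with TMM, and with scran Sf3b4 (0.41) stood above Sf3b6 (0.12).

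In erythroblasts the sign of the whole group depended on the scaling. The 49 genes together had a log2 ratio to LSK cells of -0.40 (-0.44 to -0.35) on the CPM scale, -0.07 once the 7 most abundant genes were left out of the total, 0.70 with scran size factors and 0.47 with TMM. Haemoglobin took 23.5% of the erythroblast UMIs and 1.21% of those of LSK cells, and the proliferation list, of DNA replication and mitosis genes, was higher in erythroblasts by a log2 ratio of 2.57 (2.50 to 2.63), and their part in the values was not tested. On that scale Snrp stood at -0.21 (-0.35 to -0.06), Srsf at -0.28 (-0.38 to -0.19), Hnrnp at -0.45 (-0.52 to -0.39) and Sf3 at -0.53 (-0.66 to -0.39), and all 4 were positive with scran size factors and TMM. The 7 Sm proteins of the Snrp family alone gave -0.06 (-0.23 to 0.10). Ribosomal protein genes and translation factors were both at -0.70 on the same CPM scale, close to the median gene.

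Srsf10, an SR protein whose activity depends on its phosphorylation, had the highest erythroblast ratio of all members. Its level was 151 CPM in LSK cells, 246 in erythroblasts, 34.7 in granulocytes, 221 in B and 99.8 in T cells. The log2 ratio of erythroblasts over LSK cells was 0.70 (0.36 to 1.05) and stayed positive under every scaling tried, from 0.59 to 1.96. Srsf10 also held the only value past 2-fold between the lymphoid populations, lower in T than in B cells by a log2 ratio of -1.15 (-2.04 to -0.28) on 20 and 30 UMIs, although this was -0.89 without T plate row P, -1.52 without T plate row O and -0.79 as a mean over wells. Of all Srsf UMIs it took 11.5% in erythroblasts (9.93 to 13.3) and 10.3% in B cells (7.09 to 14.4), against 5.83% in LSK cells (4.88 to 6.90), 4.55% in T cells (2.80 to 6.93) and 3.71% in granulocytes (2.04 to 6.15). The 4 erythroblast rows, from 10.9 to 12.3% of Srsf UMIs, lay above the 4 LSK rows, from 3.70 to 7.61%.

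**Figure D4:**
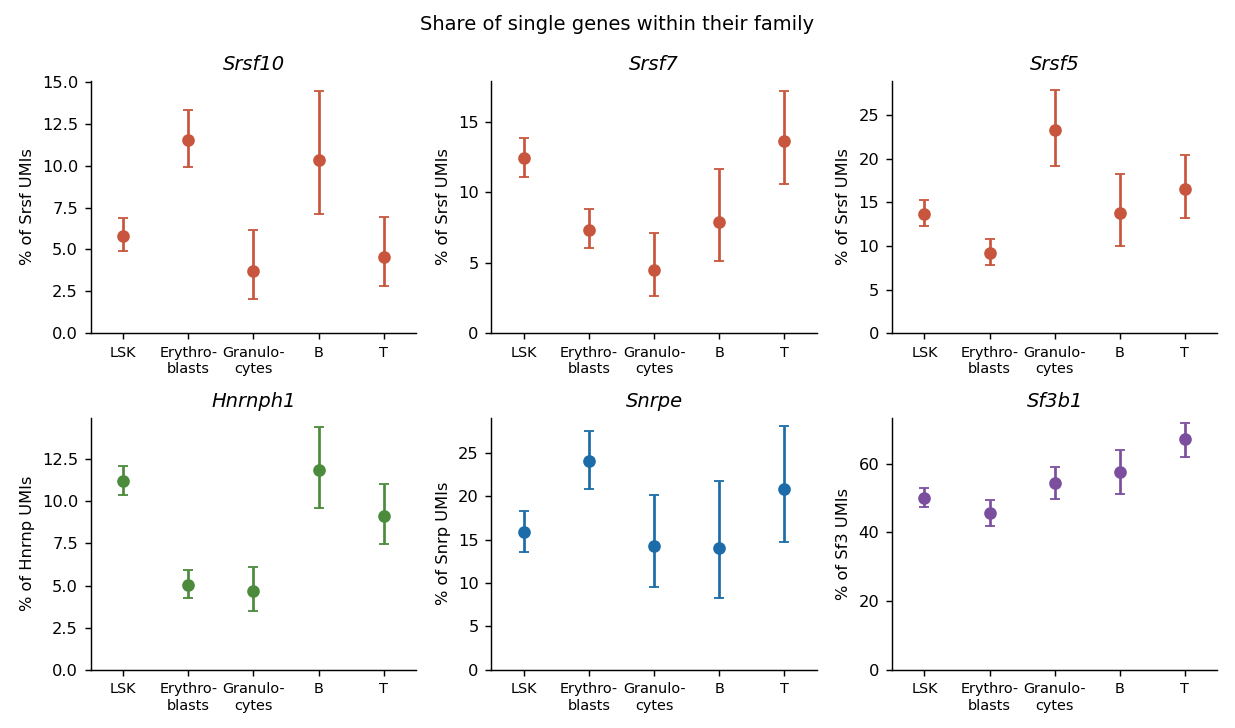
Share of a single gene among the UMIs of its family (y axis, from 0, in percent) in the 5 populations, for 3 Srsf genes, Hnrnph1, Snrpe and Sf3b1, with 95% exact binomial intervals. Srsf10 was at 11.5% in erythroblasts and 10.3% in B cells, Srsf5 at 23.3% in granulocytes, Hnrnph1 at about 5% in erythroblasts and granulocytes, and Sf3b1 at 67.0% in T cells.

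Srsf7 and Srsf5 divided the Srsf family in other ways. Srsf7 took 12.4% of Srsf UMIs in LSK cells (11.1 to 13.9) and 13.6% in T cells (10.6 to 17.2), but 7.32% in erythroblasts (6.02 to 8.80), 7.93% in B cells (5.09 to 11.7) and 4.51% in granulocytes (2.65 to 7.12). Srsf5, a splicing regulator of the same family, took 23.3% in granulocytes (19.2 to 27.9) and 9.23% in erythroblasts (7.77 to 10.9), with 13.7 to 16.6% in the other 3 populations. Its granulocyte level, 218 CPM, was nevertheless under the 356 CPM of LSK cells, so in CPM the larger share went with lower levels of the other Srsf genes. The order of the Srsf5 levels was not stable, since its log2 ratio of -0.71 ran from -1.66 to 0.29 over the settings tried. Srsf2, Srsf11 and Srsf1 had the most UMIs of the family, at 183 to 478 CPM, 151 to 363 CPM and 134 to 333 CPM, each lowest in granulocytes. The end of Srsf2 overlaps a Mettl23 transcript on the opposite strand.

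Other members high in erythroblasts were Hnrnpul1, Snrpe, Sf3b4 and Snrpg. Hnrnpul1 was at 303 CPM there and 195 in LSK cells, a log2 ratio of 0.63 (0.33 to 0.94). Snrpe, an Sm protein, was at 181 CPM in LSK cells, 238 in erythroblasts, 64.4 in granulocytes, 118 in B and 160 in T cells, with a ratio of 0.40 (0.07 to 0.73). Both stayed positive under every scaling tried. Snrpe took 24.1% of Snrp UMIs in erythroblasts (20.9 to 27.5) and 15.8% in LSK cells (13.6 to 18.3). The ratios of the SF3b subunit gene Sf3b4, 0.32 (-0.29 to 0.94), and of the Sm gene Snrpg, 0.18 (-0.25 to 0.62), did not differ from 0 beyond counting error.

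The lowest erythroblast ratios were those of Snrpa, a U1 particle protein, Hnrnph1, Hnrnpa0, Hnrnpa1 and Snrpb2, a U2 particle protein. Snrpa was at 63.5 CPM in LSK cells and 19.5 in erythroblasts, on 53 and 13 UMIs, a log2 ratio of -1.70 (-2.70 to -0.81). For Hnrnpa0, an RNA-binding protein encoded without introns, the levels were 462 CPM in LSK cells, 157 in erythroblasts, 116 in granulocytes, 339 in B and 329 in T cells, and the erythroblast ratio was -1.55 (-1.88 to -1.24). Hnrnpa1 gave -1.37 (-2.00 to -0.77), and Snrpb2, at 109 and 45.0 CPM, gave -1.28 (-1.92 to -0.67). All 5 remained negative under every scaling, although Hnrnpa0 came to -0.16 with scran size factors.

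B and T lymphocytes differed less from LSK cells. The 49 genes together had log2 ratios of -0.17 in B (-0.25 to -0.09) and -0.17 in T cells (-0.24 to -0.10), which turned to 0.13 and 0.06 with scran size factors, and B to 0.03 without the 7 most abundant genes. Snrp was at -0.45 in B (-0.74 to -0.16) and -0.57 in T cells (-0.83 to -0.33), negative under every scaling, but the T value was -1.12 without T plate row O and -0.24 without row P. Srsf gave -0.28 and -0.24, and Hnrnp -0.18 and -0.21, of which the B value of Hnrnp and the T value of Srsf turned positive with scran size factors, at 0.13 and 0.08. Sf3 was at 0.21 in B (-0.00 to 0.41) and 0.27 in T cells (0.10 to 0.44), and both were negative per ERCC spike-in UMI, while the T value ran from 0.15 to 0.40 with a T row left out.

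Sf3b1, the large SF3b subunit that holds the branch point and is often mutated in myelodysplastic syndromes, held the most UMIs of its family in every population. Its level was 747 CPM in LSK cells, 472 in erythroblasts, 617 in granulocytes, 994 in B and 1208 in T cells. The log2 ratio over LSK cells was 0.41 in B (0.13 to 0.68) and 0.69 in T cells (0.47 to 0.91), again negative per ERCC UMI. The positive Sf3 values were not seen without it, since the other 8 genes gave -0.03 in B (-0.35 to 0.28) and -0.33 in T cells (-0.62 to -0.04). Sf3b1 made up 50.1% of Sf3 UMIs in LSK cells (47.3 to 52.9), 45.6% in erythroblasts (41.8 to 49.4), 54.5% in granulocytes (49.8 to 59.1), 57.7% in B (51.1 to 64.1) and 67.0% in T cells (61.9 to 71.9). Both T plate rows, 65.0 and 69.1%, lay above the 4 LSK rows, whose highest was 55.0%.

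In T cells the other high ratios over LSK cells were those of Hnrnpl at 0.39 (-0.08 to 0.84), Snrpb2 at 0.14 (-0.58 to 0.80), Hnrnpdl, an RNA-binding relative of Hnrnpd, at 0.13 (-0.28 to 0.52) and Srsf5 at 0.03 (-0.36 to 0.41). None of these 4 stood apart from 0 by more than its counting error. The lowest were Snrpd1, an Sm protein, at 39.9 to 128 CPM over the populations and -1.68 in T cells (-2.93 to -0.65), the SR gene Srsf9 at -1.53 (-3.46 to -0.08) and the SF3a gene Sf3a3 at -1.19 (-2.69 to 0.02). They were followed by Snrpd2 at -1.16 (-2.27 to -0.22) and Snrpf at -1.15 (-2.10 to -0.32). T cell counts behind these 5 were only 4 to 13 UMIs each, and without 1 T plate row Sf3a3 came to -0.64 (row O) and Snrpf to -0.80 (row P).

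In B cells Snrpd1 was again the lowest, at -1.54 (-3.01 to -0.37) on 6 UMIs, and this ranged from -3.06 to -0.86 when single plate rows were left out. Snrpb2 was at -1.08 (-2.44 to 0.02) and -0.94 without LSK row N, Srsf7 at -0.93 (-1.61 to -0.31), Snrpa at -0.79 (-2.47 to 0.53) and the SR gene Srsf6 at -0.73 (-1.41 to -0.11). At the top were Hnrnpul1 at 0.66 (0.14 to 1.16), Hnrnpl at 0.59 (0.06 to 1.08), Srsf10 at 0.55 (-0.08 to 1.13) and the SF3a gene Sf3a1 at 0.41 (-0.47 to 1.20), which turned to -0.21 without 1 plate row. Of these 4, only Hnrnpul1 and Hnrnpl had intervals above 0, and all were negative per ERCC UMI.

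Between the lymphoid populations the families were alike within counting error, with log2 ratios of T over B of -0.13 for Snrp (-0.49 to 0.23), 0.04 for Srsf (-0.18 to 0.26), -0.03 for Hnrnp (-0.17 to 0.11) and 0.06 for Sf3 (-0.18 to 0.31). These intervals still allow differences of the size of their ends, and per ERCC UMI all 4 were positive, at 0.30 to 0.50. The Snrp value rested on T plate rows at 527 and 970 CPM, and was -0.67 without row O and 0.21 without row P. Srsf7 was the highest member, at 299 CPM in T and 169 in B cells (0.82, interval 0.11 to 1.58). Next came Srsf6 at 0.72 (-0.00 to 1.49), Hnrnpul2, another Hnrnpu relative, at 0.56 (-0.19 to 1.36), Hnrnpdl at 0.33 (-0.27 to 0.96) and Srsf5 at 0.31 (-0.27 to 0.90). At the low end, after Srsf10, were Hnrnpul1 at -0.71 (-1.38 to -0.04), the SR gene Srsf3 at -0.41 (-1.02 to 0.20), Hnrnph1 at -0.40 (-0.84 to 0.03) and Hnrnpm at -0.40 (-0.93 to 0.14). Ribosomal protein genes differed between the same populations by 0.47 (0.42 to 0.52).

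Among the 21 members with at least 20 UMIs in every population, the most even was Hnrnpc, a binder of uridine tracts, from 256 to 391 CPM, a range of 1.52-fold. Hnrnpul1, Hnrnpul2, Sf3b2 and Hnrnpdl followed with 1.63-, 1.67-, 1.71- and 1.84-fold. Hnrnph1 had the widest range, 5.49-fold, then Srsf3 with 4.78-fold, from 69.4 CPM in granulocytes to 331 in B cells, Hnrnpr with 4.45-fold, Hnrnpa0 with 3.97-fold and Srsf6 with 3.90-fold. Hnrnpa2b1, which has the most UMIs of all members, ran from 560 CPM in granulocytes to 1191 in LSK cells, and its share of Hnrnp UMIs was 26.6% in erythroblasts (25.0 to 28.2) and 19.6 to 21.1% in the other 4 populations. Hnrnpu was at 265 to 647 CPM and Hnrnpab at 183 to 568 CPM, both lowest in granulocytes. The Sm gene Snrpb was at 76.8 to 148 CPM, Snrpg at 29.7 to 132 CPM and Sf3b6 at 81.8 to 125 CPM.

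Over the 44 members with at least 50 UMIs in all, 21 were highest in LSK cells, 8 each in erythroblasts and B cells and 7 in T cells, and 29 were lowest in granulocytes, 9 in erythroblasts, 4 in T and 2 in B cells. The same count over all genes was not made. The median gene also lay under LSK cells, at -0.76 in granulocytes and -0.73 in erythroblasts, so these numbers cannot be read as particular to the members. The remaining 5 members were too sparse to compare. Srsf4, Hnrnpf, Sf3a2 and Sf3b3 had 2, 2, 1 and 3 UMIs in all 374 wells, with 0 in at least 3 populations each, where a count of 0 allows from 3.59 CPM in LSK cells to 22.1 CPM in B cells. Each of these 4 shares exon bases with a gene on the opposite strand, as do 13 other members. On the same strand 5 members, Snrpa1, Hnrnpa3, Hnrnpm, Hnrnpul2 and Sf3b3, share exon bases with another gene. The part of such overlaps in the counts was not tested. Hnrnpll, a regulator of CD45 splicing in lymphocytes, had 23 UMIs in LSK cells, 10 in erythroblasts, 3 in granulocytes, 0 in B and 9 in T cells. The 3′ end of Snrpc also matched 3 pseudogenes at 97% identity or more over at least 100 bases, so its 92 UMIs are uncertain.

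Genes of the splicing machinery outside the 4 prefixes were taken from lists by function. Core spliceosome genes, 38 in number, had summed log2 ratios over LSK cells of -0.52 in erythroblasts, -0.96 in granulocytes, -0.12 in B and -0.07 in T cells, which lay 0.21 above, 0.21 below, 0.32 above and 0.15 above the median gene. Over LSK cells 7 of 31 tested were lower by 2-fold or more in erythroblasts, 10 of 25 in granulocytes, 0 of 24 in B and 1 of 25 in T cells, where the shares of all genes were 40.9, 42.7, 27.9 and 17.8%. Those higher numbered 1, 0, 0 and 0 in the same order, against 14.8, 13.7, 6.56 and 8.35% of all genes. The extremes in erythroblasts were Snrnp48 (-2.07) and Prpf19 (-1.71) against Snrnp25 (0.91) and Phf5a (1.05), and in granulocytes Lsm3 (-3.62, interval -6.71 to -1.70, on 2 UMIs) and Prpf19 (-2.18) against Snrnp40 (-0.43) and Bud31 (0.40). In B cells the lowest were Ddx39b (-0.84) and Prpf4b (-0.75), and in T cells the extremes were U2af1 (-1.42) and Lsm3 (-0.81) against Lsm8 (0.54) and Phf5a (0.54).

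SR-related proteins and the kinases of SR proteins, 17 genes, gave -0.47, -0.74, -0.04 and 0.03 in the same 4 comparisons, with 5, 8, 3 and 1 of 17 lower by 2-fold or more, against the same shares of all genes, and 1, 1, 0 and 0 higher, against 14.8, 13.7, 6.56 and 8.35%. The summed granulocyte ratio differed from the median gene by 0.018. The SR protein kinases differed from each other, with Srpk1 at -2.42 in erythroblasts (-3.07 to -1.82), -2.00 in granulocytes (-2.73 to -1.34) and -2.50 in B cells (-4.14 to -1.25), but Srpk2 at -3.61 in erythroblasts (-5.10 to -2.44), 1.21 in granulocytes (0.79 to 1.63) and -2.32 in B cells (-4.62 to -0.73). Srpk1 was also 2.92 higher on the log2 scale in T than in B cells (1.62 to 4.60). The other extremes were Clk3 (1.37) and Srrm1 (0.81) in erythroblasts, Rnps1 (-2.17) and Son (-0.10) in granulocytes, Clk1 (0.96) and Dyrk1a (0.85) in B, and Rnps1 (-2.16, interval -4.48 to -0.54, on 3 UMIs), Pnisr (-0.47), Clk3 (0.45) and Son (0.46) in T cells.

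A list of 29 other RNA-binding regulators gave -0.69, -1.27, -0.36 and -0.20, with 7 of 22, 14 of 20, 0 of 20 and 1 of 22 lower by 2-fold or more, beside 40.9, 42.7, 27.9 and 17.8% of all genes, and none higher, beside 14.8, 13.7, 6.56 and 8.35%. The sum lay 0.51 under the median gene in granulocytes and within 0.083 of it in the other 3 comparisons. Celf2 was at -4.36 in erythroblasts (-5.16 to -3.67) and 0.00 in granulocytes (-0.24 to 0.24), where Matr3 was the lowest at -2.13 (-2.65 to -1.65). The other extremes were Tia1 (-2.97), Elavl1 (0.32) and Celf1 (0.61) in erythroblasts, Syncrip (-1.92) and Qk (-0.12) in granulocytes, Syncrip (-0.78), Pabpc1 (-0.74), Khdrbs1 (0.42) and Safb (0.51) in B cells, and Qk (-1.11), Tia1 (-0.87), Celf1 (0.54) and Mbnl1 (0.57) in T cells. The Sm ring assembly list, which holds the SMN complex and the methylosome, had few UMIs and 4 or 5 genes tested per comparison. Its summed ratios were -1.43 in erythroblasts and -1.65 in granulocytes, and Prmt5, which methylates Sm proteins, was at -3.02 (-4.28 to -1.97) and -3.71 (-6.01 to -2.11) there. The other extremes were Wdr77 (-3.38), Ddx20 (-0.90) and Strap (-0.38) in erythroblasts and Clns1a (-2.67), Strap (-1.72) and Wdr77 (-0.58) in granulocytes, and 3 of 4 tested were lower by 2-fold or more in B and in T cells, beside 27.9 and 17.8% of all genes.

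Index sorting recorded the fluorescence of each cell, so the LSK cells, erythroblasts and granulocytes were also split at their median of a marker. Erythroblasts with more CD44, a protein lost as the cells mature, had 1238 CPM of Snrp genes against 607 CPM in wells with less, a log2 ratio of 1.03 (0.77 to 1.29). The ratios were 0.59 for Sf3 (0.35 to 0.83), 0.25 for Srsf (0.09 to 0.41) and 0.20 for Hnrnp (0.10 to 0.31), and the median of 1870 genes was 0.27. The proliferation list was at -0.11 (-0.16 to -0.05) in the same split. Haemoglobin took 17.6% of the UMIs in the CD44-high wells and 32.7% in the CD44-low wells. As a share of member UMIs, which the haemoglobin content does not enter, Snrp was at 13.2% (12.1 to 14.3) against 8.24% (7.05 to 9.56). A split by forward scatter gave 13.3 against 8.96% for Snrp.

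Granulocytes with more Gr1 had lower levels of 3 families. The log2 ratios of the Gr1-high over the Gr1-low wells were -1.25 for Snrp (-1.79 to -0.74), -0.61 for Srsf (-0.94 to -0.29) and -0.52 for Hnrnp (-0.71 to -0.33), while Sf3 was at -0.02 (-0.29 to 0.26) and the median of 1074 genes at 0.05. The proliferation list was at -1.34 (-1.62 to -1.06) in the same split. Sf3 thus took 26.8% of member UMIs in the Gr1-high wells (23.5 to 30.2) and 19.5% in the Gr1-low wells (17.4 to 21.6). LSK cells split by Sca-1 differed little, with -0.20 for Snrp (-0.38 to -0.01) and -0.01 for Sf3 (-0.18 to 0.15), and a split by forward scatter gave 0.02 for the 49 genes (-0.03 to 0.08). In LSK cells the proliferation list was at -0.55 (-0.67 to -0.42) by Sca-1 and 0.59 (0.46 to 0.71) by forward scatter.

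**Figure D5:**
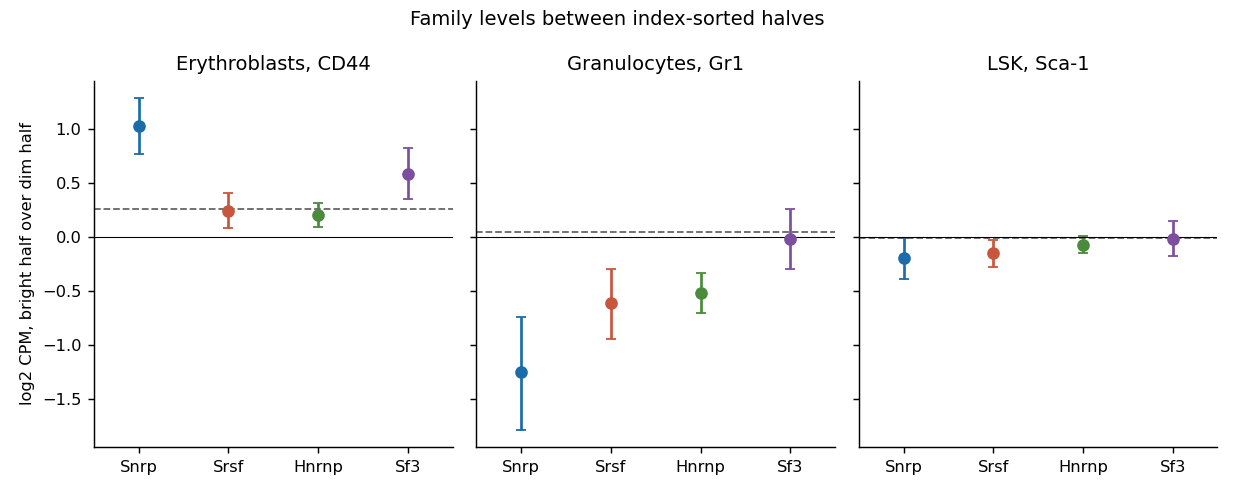
Log2 ratio of family CPM (y axis) between the wells of a population above and below the median fluorescence of 1 sorting marker, by family (x axis), for CD44 in erythroblasts, Gr1 in granulocytes and Sca-1 in LSK cells, with 95% exact intervals and the median of all tested genes as a dashed line. Snrp stood at 1.03 and -1.25 in the first 2 panels and the Sca-1 values lay between -0.20 and -0.01.

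Single wells with at least 2000 UMIs showed the spread between cells. The 49 genes took from 0.663 to 1.64% of a well's UMIs in 95 LSK cells (median 1.06%), 0.219 to 1.53% in 95 erythroblasts (0.816%), 0.157 to 1.15% in 86 granulocytes (0.451%), 0.430 to 1.88% in 33 B cells (0.951%) and 0.669 to 1.61% in 42 T cells (0.989%). The ranges of all populations overlapped, although the granulocyte median was under the lowest LSK well. No Snrp UMI was seen in 30 of the 86 granulocytes and 11 of the 95 erythroblasts, but in 0 of the 95 LSK cells, whose wells were deeper. Across the 95 LSK wells the share of the 49 genes went with that of the proliferation list (Pearson r 0.52, Spearman rho 0.53) and less with depth (r 0.36, rho 0.30), a description over wells that share 1 mouse, 1 plate and part of their totals. Across the 95 erythroblast wells the 49 genes and the proliferation list gave r -0.015 and rho 0.05. In the 95 erythroblast wells the Srsf and Hnrnp shares were related at r 0.67 and rho 0.71, where haemoglobin took 3.53 to 52.3% of a well and stands in the total of both shares, whereas in LSK wells the same pair gave r 0.37 and rho 0.40.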

How the data were processed

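The authors deposited raw UMI counts per gene and well, made with scPipe, which aligns reads, assigns them to exons, matches designed cell barcodes and collapses UMIs. For the aligner version, the genome build, the annotation and the strand setting, nothing is stated in the labels, the file or the methods. The 374 labelled wells were used, 9 columns without a label were not, and all 374 cell barcodes were distinct. Ensembl identifiers were named with GENCODE M21 (19755 of 19829 mouse genes matched). The families and all gene lists were chosen with earlier results of these data known.

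Counts were summed over the wells of a population and divided by the UMIs on mouse genes (CPM). A 3′ end count does not grow with transcript length, so CPM was not scaled by length. Poisson intervals were used for levels, binomial intervals for shares and conditional binomial intervals for ratios, and a count of 0 was read as allowing up to 3 UMIs. Genes named are the 3 with most UMIs per family, the 5 highest and 5 lowest per comparison, the 5 widest and narrowest in range, members at 0, and the 2 highest and lowest of each outside list, of which some are given as counts only or are not reported here. Genes singled out for their shares within a family, and SF3a genes, were chosen after their values were seen. Alternatives were 4 other totals or size factors (scran 1.30.0, edgeR 4.0.16 for TMM, ERCC UMIs, a total without the 7 most abundant genes), means over wells, filters on wells and genes, and each plate row left out. Near-identical 3′ ends (last 400 bases) were searched with blastn 2.17.0. Scripts were tested on simulated counts. Python 3.11.15 and R 4.3.3 were used.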

Additional observations from a re-analysis of the deposited data

How the results depend on the processing

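The totals behind CPM limited the result most, since the order of erythroblasts and LSK cells turned with them, and the B and T values rest on few UMIs. The summed log2 ratio over LSK cells reversed with scran size factors in erythroblasts (0.70), B (0.13) and T cells (0.060), with TMM in erythroblasts (0.47), and without the 7 dominant genes in B cells (0.027). Otherwise it moved in erythroblasts to -0.071 (dominant genes out), -0.51 (per ERCC UMI) and -0.46 (mean over wells), in granulocytes to -0.89 (dominant genes out), -0.28 (scran), -0.35 (TMM) and -2.08 (ERCC), in B cells to -0.063 (TMM) and -1.49 (ERCC), in T cells to -1.07 (ERCC) and -0.090 (mean over wells), and for T over B to -0.13 (dominant genes out) and 0.43 (ERCC).

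By family, in erythroblasts Snrp reversed to 0.12 (dominant genes out), 0.58 (scran) and 0.65 (TMM), Srsf to 0.042, 0.81 and 0.58, Hnrnp to 0.69 (scran) and 0.41 (TMM), and Sf3 to 0.57 and 0.34. Sf3 in granulocytes reversed to 0.56 and 0.37 (scran, TMM), Hnrnp in B cells to 0.014 and 0.13 (dominant genes out, scran), Srsf in T cells to 0.079 (scran) and Sf3 in T cells to -0.62 (ERCC). With genes of at least 1 UMI the offset from the median gene reversed to -0.16 in erythroblasts, -1.24 in B cells and 0.53 for T over B.

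Counts past 2-fold moved as follows. Erythroblasts had 1, 10 and 5 members higher and 4, 1 and 0 lower (dominant genes out, scran, TMM), and 4 lower at 200 UMIs. Granulocytes had 13 lower with TMM and at 200 UMIs, 39 per ERCC UMI, and 3 higher at 1 UMI. B cells had 1 lower with dominant genes out, scran and TMM, 34 per ERCC UMI, 5 in wells of at least 2000 UMIs, 4 without haemoglobin-high wells and 0 at 200 UMIs, and 3 higher at 1 UMI. T cells had 1 higher with scran and 4 at 1 UMI, and 26 lower per ERCC UMI and 0 at 200 UMIs. For T over B the 1 lower member became 0 with scran, ERCC, means over wells, without wells A8 and B2, without haemoglobin-high wells and at 200 UMIs, and 4 at 1 UMI, while 2 were higher per ERCC UMI and at 1 UMI, and 1 without haemoglobin-high wells and at 20 UMIs. The shares of all genes past 2-fold under these settings are not reported here. Per ERCC UMI the log2 ratio of the median gene over LSK cells was -1.72 in granulocytes, -1.76 in B and -1.11 in T cells. The counts per ERCC UMI alone can therefore not be read as particular to the members. The offsets of the members from the median gene were the same per ERCC UMI as in CPM. They were -0.49 in granulocytes, 0.19 in B and -0.09 in T cells. The cause of the changes in these counts was not tested.

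With each plate row left out, the summed ratio ran from -0.43 to -0.35 in erythroblasts, -1.20 to -1.04 in granulocytes, -0.20 to -0.13 in B, -0.21 to -0.13 in T cells and -0.02 to 0.01 for T over B. Lower members numbered 6 to 9, 21 to 27, 1 to 3, 3 to 5 and 0 to 0, and higher ones 0 except 0 to 1 for T over B. The last 0 follows from the threshold, since Srsf10 held exactly 50 UMIs in T and B cells and any row left out removed it from the count. The thresholds of 200 UMIs and the removal of haemoglobin-high wells were chosen after seeing the data. No paired analysis was possible because each population is 1 sample and well numbers are positions on the plate.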
